A study of Mus musculus with 10 samples.

Results

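The sites described here are 226 intronic polyadenylation sites, in 199 genes, that stayed below 10% usage in every cell line whose comparison listed them. They were drawn from 520 distinct sites that the authors' deposited tables list as differing between non-metastatic and metastatic mouse mammary tumour lines. The remaining 294 listed sites reached 10% in at least 1 group. Usage is the share of 3′-end reads at the intronic site among the reads at that site and at the last exon of the same gene, so the selection used usage itself, on the mean of 2 libraries per line. For that reason the line comparisons below describe the selected sites and carry no test of them.

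Most mammalian genes end their transcripts in the last exon, where the cleavage and polyadenylation machinery cuts the nascent RNA and adds a poly(A) tail. A polyadenylation signal inside an intron can be used instead, which gives a shorter transcript that lacks the downstream exons and often encodes a truncated protein. The U1 small nuclear ribonucleoprotein, known for recognising 5′ splice sites, also keeps many intronic signals from being used, and blocking U1 with an antisense oligonucleotide releases them.

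The series read the 3′ ends of polyadenylated RNA in 10 libraries, 2 from each of 5 groups of cultured cells. The 67NR and 168FARN lines are labelled non-invasive and called non-metastatic in the series design, and the 4T07 and 4T1 lines are labelled invasive and called metastatic. The fifth group, 4T1-U1-ASO, was the 4T1 line treated with a morpholino antisense to U1. All groups are tumour cell lines grown in culture, each line a single model, and the labels give no treatment for the 4T1 libraries although the design speaks of a mock transfection. The labels do not say whether paired libraries were grown as separate cultures, so every SD and p-value here measures the spread within such pairs of libraries, which may be technical.

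The peak lists held between 1427728 reads (67NR replicate 2) and 3347776 reads (67NR replicate 1) per library. The list of 67NR replicate 2 covers 10 chromosomes only, while the comparison tables give values for that library on all chromosomes, so results that rest on the lists use fewer 67NR sites. The tables were filtered by the authors to an adjusted p of at most 0.1, and sites outside them were not analysed here.

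The low-usage sites had many last-exon reads and few site reads, which the limit on usage itself favours. Their median was 464 last-exon reads and 6.5 site reads per library, against 84.25 and 15.25 at the other listed sites. The last-exon counts are as the tables hold them. As described below, these exceeded the peak reads at 45.6% of the low-usage sites with a matched last exon and 17.7% of the other ones. The usage in the highest group of a site had a median of 3.84% and ran from 0.0610% to 9.94%, and 142 sites stayed below 5% and 26 below 1%. The intervals were 374 bp wide in the median, 116 lay on the plus strand, and they were spread over 20 chromosomes. The lowest usage was at a site in Sparc, which encodes a secreted matrix glycoprotein (mm9 chr11:55210856-55211101, minus strand): 5 and 14 site reads against 17022 and 15108 last-exon reads in 67NR, and no site read against 6833 and 7185 last-exon reads in 4T07.

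Just inside the limit lay sites in Wdr26 at 9.46%, Kdsr at 9.72%, Ppp2r5c at 9.74%, Nom1 at 9.79%, Ttc7b at 9.82% and Tor1aip1 at 9.94% in their highest group. Just outside it lay sites in Pdzd8 at 10.1%, Herpud2 at 10.1%, Slc25a13 at 10.4%, BC017158 at 10.5%, Cdr2l at 10.5% and Padi2 at 10.5%. The limit therefore cuts a continuous range, and no gap in usage separates the 2 classes.

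The percentages depend on how the last exon was counted. For 158 of the 226 sites a run of peaks downstream matched the tables' last-exon reads within 5% in every listed library. At 86 of them the tables held the peak reads once, at 66 they held 2 times the peak reads and at 6 they held 3 times the peak reads. At the other listed sites 32 of 186 matched at 2 times the reads and 1 at 3 times. Multiples of 1.5 and 2.5, tried in the same way, matched 3 and 1 of the low-usage sites, and the site reads themselves never matched at 2 times the reads. With the last exon counted once at the matched sites, 212 of the 226 sites stayed below 10% and 14 reached it. The median of the highest group rose from 3.84% to 4.51%. The 68 sites without a match were kept as listed, so more than 14 could reach 10%. A multiplied last exon lowers the usage of a site in all lines alike, so the direction between lines does not depend on it, and the cause was not tested. Among the 14 were sites in Bnip2, Chchd6, Chka, Dnttip1, Ndufa7, Pgm2, Pradc1, Tamm41 and Tcf25 and both sites in each of Csnk1e and Wdr26, and the highest was a Csnk1e site at 19.3% ± 4.8 in 67NR (SD, n = 2). Usage below is as the tables give it.

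Usage of the low-usage sites was mostly lower in the metastatic line. Of the 226 sites, 164 were listed only as lower, 59 only as higher and 3 in both directions. The group with the highest usage was 67NR at 83 sites, 168FARN at 83, 4T07 at 50 and 4T1 at 10. Among the other listed sites 241 of 294 (82.0%) were always lower, against 72.6% here, and both shares follow from what the authors listed.

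In 4T1 against 67NR, 38 low-usage sites were lower and 7 higher, and the median usage of the lower ones was 3.67% in 67NR and 0.471% in 4T1. In 4T07 against 67NR, 77 were lower and 18 higher, with medians of 3.51% in 67NR and 0.418% in 4T07 among the lower ones. The 21 sites lower in 4T1 than in 168FARN had medians of 3.40% and 0.425%, and 7 sites were higher there. The longest list was 4T07 against 168FARN, with 93 sites lower, at medians of 4.54% in 168FARN and 0.622% in 4T07, and 39 higher, at 0.497% and 2.2%. The median size of the difference was between 2.69 and 3.15 percentage points in the 4 comparisons, against 19.3 to 24.4 points at the other listed sites, while the median size of the authors' deposited log2 fold change was between 1.66 and 1.86 here and between 1.75 and 2.0 there. The limit of 10% itself keeps the differences in percentage points small, so this contrast with the other listed sites is a description of the selection.

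**Figure D1:**
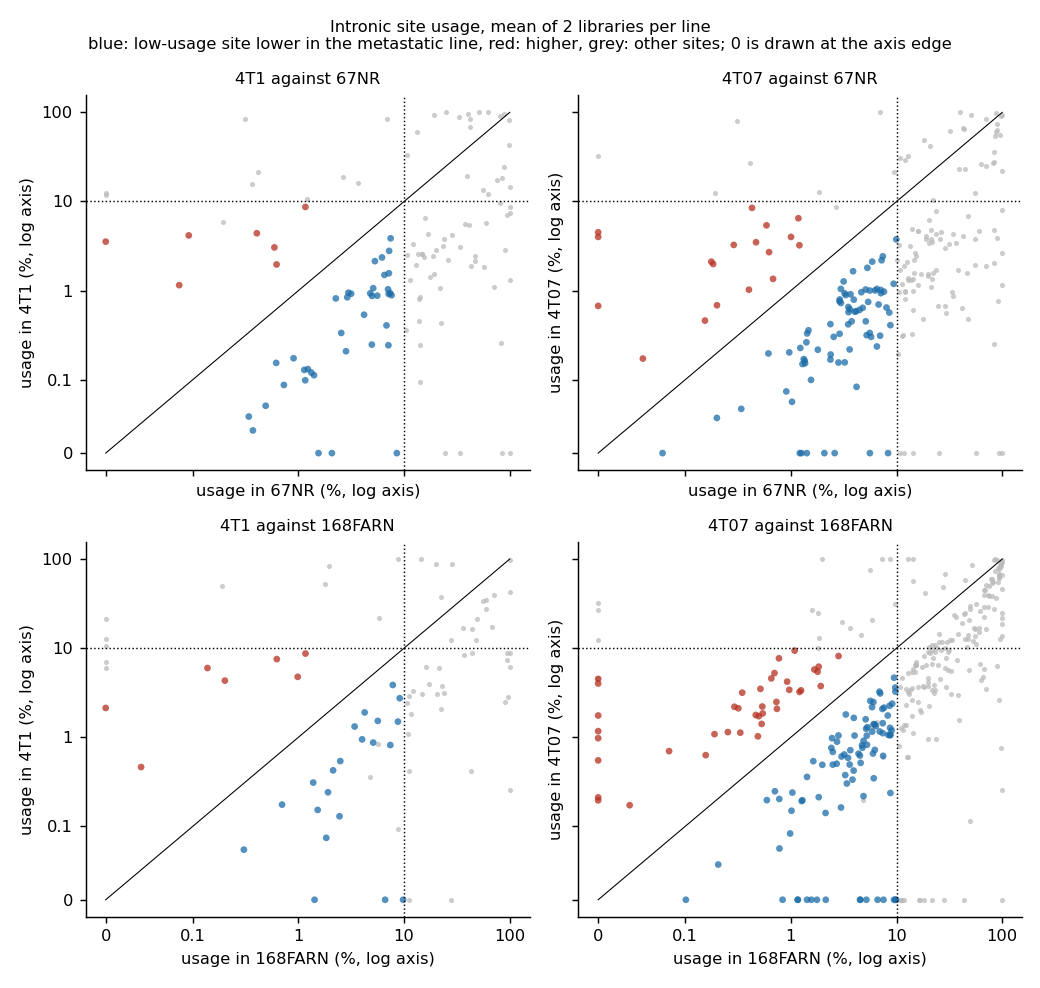
Usage in the non-metastatic line (x axis, %, log) against usage in the metastatic line (y axis, %, log) for every listed site, 1 panel per comparison, each point the mean of 2 libraries. Blue and red points are the low-usage sites, lower or higher in the metastatic line by the authors' deposited fold change, grey points are the other listed sites, dotted lines mark 10% and values of 0 are drawn at the axis edge; most blue points lie well below the diagonal, 93 of them in 4T07 against 168FARN.

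The differences lay in the site reads more often than in the last-exon reads. Each difference was split into the log2 difference of the normalized site signal and that of the normalized last-exon signal, both on the log2(signal + 1) scale. The site part was the larger in 37 of 45 low-usage sites in 4T1 against 67NR, in 80 of 95 in 4T07 against 67NR, in 21 of 28 in 4T1 against 168FARN and in 106 of 132 in 4T07 against 168FARN. At the other listed sites it was the larger in 47 of 77, 83 of 119, 31 of 57 and 101 of 197. Among the lower low-usage sites the median site part was between -2.27 and -1.84 and the median last-exon part between 0.16 and 0.34. The sites were selected on the share that these 2 parts make up, so the difference from the other sites is a description.

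**Figure D2:**
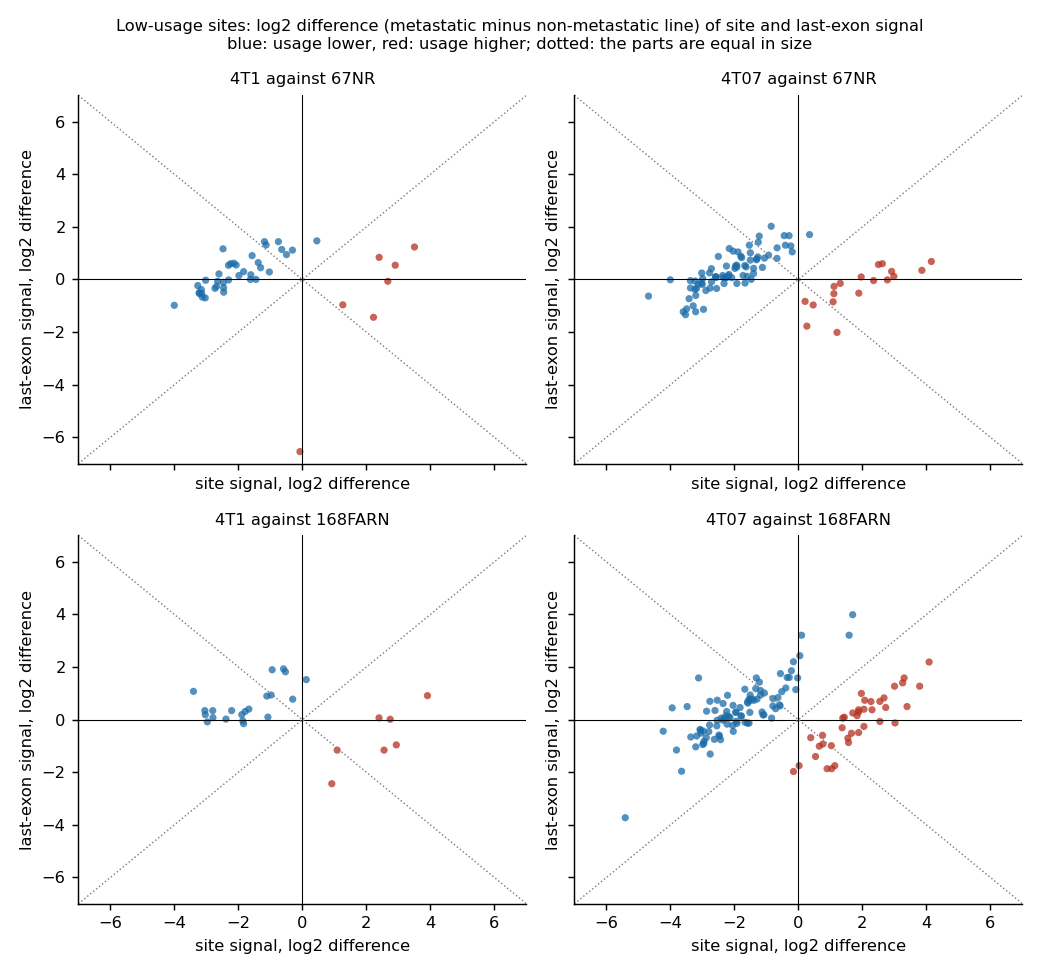
Log2 difference of the site signal (x axis) and of the last-exon signal (y axis), metastatic minus non-metastatic line, on the log2(signal + 1) scale, 1 point per low-usage site and 1 panel per comparison. Blue points had lower and red points higher usage in the metastatic line; most points lie between the dotted lines to the left or right, where the site part is the larger (106 of 132 in 4T07 against 168FARN).

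Only 9 low-usage sites were listed in 3 or 4 comparisons: 8 were lower in the metastatic lines each time and the site in Trps1 was higher each time. Tpx2, a spindle assembly factor, had its site at chr2:152689377-152689838 on the plus strand and was listed in all 4. Its usage was 8.15% and 4.88% in the 2 67NR libraries, 10.0% and 7.45% in 168FARN, 0.472% and 0% in 4T07 and 1.55% and 1.45% in 4T1. Both non-metastatic lines lay above both metastatic lines in every library. The authors' deposited table gave log2 fold changes of -3.53 (SE 0.51) for 4T07 against 168FARN, -3.05 (SE 0.50) for 4T07 against 67NR, -1.94 (SE 0.47) for 4T1 against 168FARN and -1.57 (SE 0.47) for 4T1 against 67NR. These comparisons share libraries in pairs and are not independent of each other.

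Tpm1, which encodes tropomyosin, an actin filament protein, had a pair of such sites within 2055 bp of each other. The site at chr9:66876646-66877541 (minus strand), listed in all 4 comparisons, was used at 2.64% and 3.3% in 67NR, 4.07% and 3.94% in 168FARN, 1.06% and 1.03% in 4T07 and 1.11% and 0.784% in 4T1. The site at chr9:66875487-66876408, listed in 3, was used at 7.96% and 6.84% in 168FARN, 2.27% and 2.24% in 67NR, 1.66% and 1.21% in 4T07 and 1.04% and 0.589% in 4T1. At both sites no metastatic library reached a non-metastatic one. The second site separated 168FARN from 67NR as well, by 7.4% ± 0.79 against 2.26% ± 0.02 (SD, n = 2 each).

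Gtf2f2, a subunit of the general transcription factor TFIIF, was used at 4.98% ± 0.89 in 67NR, 5.10% ± 0.68 in 168FARN, 1.59% ± 0.46 in 4T07 and 0.871% ± 0.447 in 4T1 (SD, n = 2 each). Plcb3, a phospholipase C, had 4.78% ± 0.03, 3.20% ± 1.35, 0.640% ± 0.086 and 0.932% ± 0.103 in the same order of lines. Tmem63b, an ion channel protein of the plasma membrane, had 5.57% ± 0.55, 3.82% ± 2.56, 0.334% ± 0.040 and 0.878% ± 0.043. In these 3 genes the 2 metastatic lines lay below the 2 non-metastatic lines in every library, and the last exons of Gtf2f2 and Plcb3 stood in the tables at 2 times the peak reads.

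Spop, a substrate adaptor of a cullin-based ubiquitin ligase, departed from that order among the non-metastatic lines: its site had 44 and 36 reads in 67NR (4.18% ± 1.58) but 2 and 8 reads in 168FARN (0.983% ± 0.687). The 4T1 libraries held 1 and 5 reads and those of 4T07 held 0 and 1, so 168FARN overlapped 4T1. Ndufa7, a subunit of respiratory complex I, was the most deeply read of these sites, with 182 and 171 site reads in 67NR, 136 and 128 in 168FARN, 70 and 70 in 4T07 and 70 and 65 in 4T1. Its usage was 5.29% ± 0.66, 3.31% ± 0.30, 1.80% ± 0.06 and 2.14% ± 0.16. The tables held its last exon at 2 times the peak reads, and counted once its usage in 67NR was 10.0%, at the limit.

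Trps1, a GATA-type transcriptional repressor of mammary epithelium and breast tumours, had no site read in any 67NR or 168FARN library. In 4T07 there were 18 and 13 site reads (4.01% ± 1.35), and in 4T1 there were 1 and 6 (3.54% ± 1.73). The last exon had 345 and 413 reads in 4T07 and 42 and 120 in 4T1, so the value in 4T1 is the less precise of the 2.

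**Figure D3:**
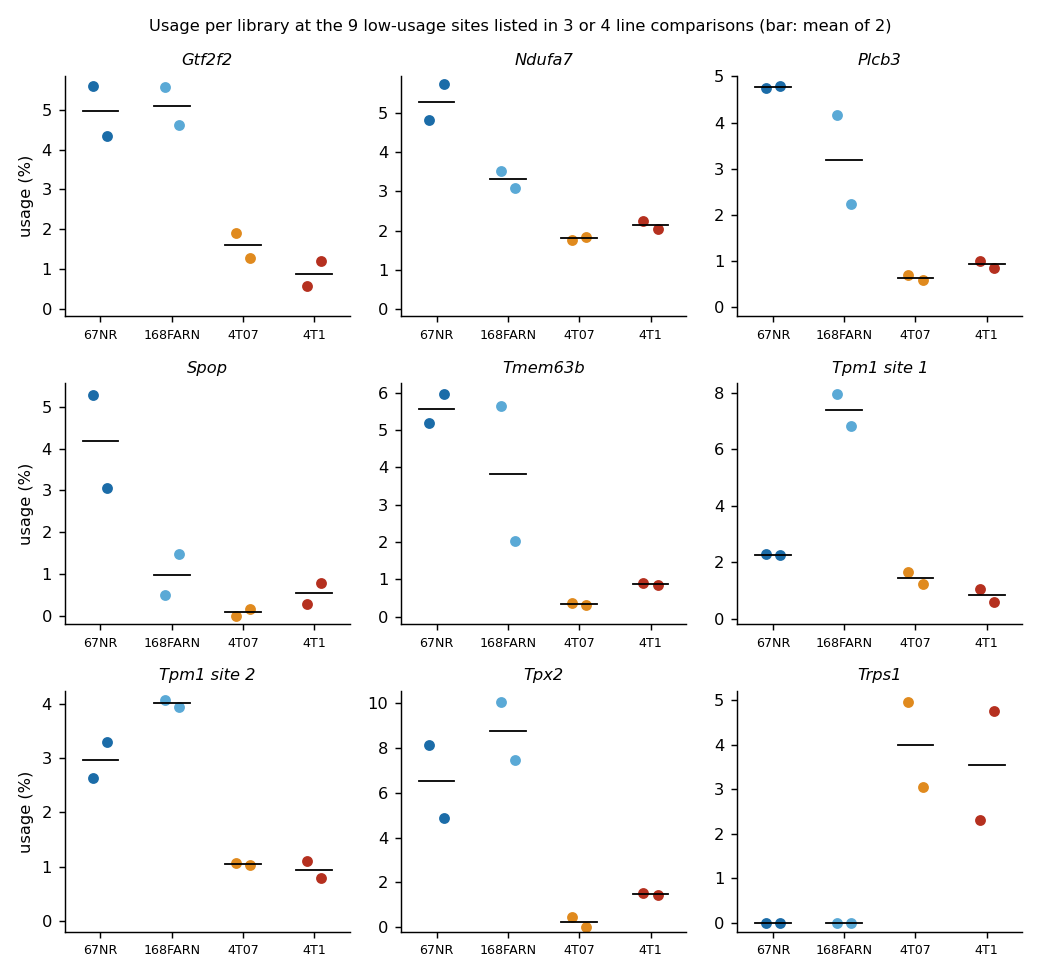
Usage (y axis, %) in each of the 2 libraries of each line (x axis) at the 9 low-usage sites listed in 3 or 4 comparisons, with a bar at the mean. In 8 panels 67NR lies above the metastatic lines, and in the Trps1 panel both non-metastatic lines are at 0.

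Several of the largest deposited falls came with site reads at or near 0 in a metastatic line. Nom1, a nucleolar protein, had 10 and 11 reads in 168FARN (9.79% ± 1.87) and none in either metastatic line, where 268 last-exon reads in 4T07 allow a share of up to 1.12%. Vcam1, an adhesion receptor for leukocytes, had 14 and 23 reads in 168FARN (4.51% ± 0.91) and none in 4T07. Dpy19l1 had 22 and 22 reads in 67NR (2.82% ± 0.02) and 1 read in each library of 4T07 and 4T1. Coro1b, an actin regulator, had 13 and 14 reads in 67NR (1.4% ± 0.33) and 1 and 1 in 4T1, and Dync1li1, a dynein light intermediate chain, had 10 and 8 in 67NR (7.10% ± 0.84) and 1 and 0 in 4T1.

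Among the sites higher in a metastatic line, Hmga2 had the largest deposited log2 fold change in 4T07 against 67NR, 2.80 (SE 0.39) in the authors' deposited table. Its usage was 5.73% and 5.08% in 4T07 and 0.692% and 0.483% in 67NR, with 24 and 27 site reads against 13 and 11. The last exon carried 395 and 505 reads in 4T07 and 1867 and 2266 in 67NR, so most of this difference lay in the last exon. Celf4, an RNA-binding protein, had 14 and 11 site reads in 4T07 (4.51% ± 1.12) and none in 67NR or 168FARN. Slc35b2, a Golgi transporter of sulfate donors, had 9 and 10 reads in 4T1 (5.98% ± 1.72) but only 1 and 0 in 168FARN. Heatr3 showed the same contrast, with 19 and 20 reads in 4T1 (4.32% ± 0.70) beside 1 and 0 in 168FARN. Ube4b, a ubiquitin chain assembly factor, was listed as higher in 4T1 in both comparisons, at 8.69% ± 3.21 against 1.16% ± 0.18 in 67NR and 1.17% ± 0.43 in 168FARN. Ssu72, a phosphatase of the cleavage and polyadenylation complex, had 7 and 7 reads in 4T07 and none in 168FARN.

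Site reads and last-exon reads disagreed most at a site in Cadm1, an adhesion molecule. In 4T1 it had 2 and 0 site reads against 22 and 6 last-exon reads, and in 67NR 2 and 1 against 1438 and 2257. The 2 groups overlapped in usage (8.32% and 0% in 4T1, 0.139% and 0.0441% in 67NR), the only low-usage site and comparison of all listed where they did. Its deposited log2 fold change of 1.41 (SE 0.30) in the authors' deposited table thus came with 5 site reads in 4 libraries.

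Genes of the cell cycle and spindle list gave 6 genes with 7 low-usage sites out of 45 genes in the list, all lower in the metastatic line. Besides Tpx2 these were Ccnb1, the mitotic cyclin, the D-type cyclins Ccnd2 and Ccnd3, Ccnk, a cyclin of transcription kinases, and E2f1, the S-phase transcription factor. Ccnb1 had 33 and 30 site reads in 67NR (5.10% ± 0.25), 2 and 8 in 4T07 (1.03% ± 0.81) and 7 and 4 in 4T1 (1.06% ± 0.46). Ccnd2 had 216 and 185 in 168FARN (9.09% ± 1.23) and 43 and 49 in 4T1 (2.74% ± 0.21). E2f1 had 17 and 10 reads at 1 site in 67NR (2.37% ± 0.93) and 1 and 3 in 4T07, and 6 and 6 at the other in 168FARN (0.834% ± 0.022) and none in 4T07. The 7 sites are all the listed sites of this gene list. This list and those below are short, so each direction given holds for the genes in the list only.

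The actin and adhesion list gave 3 genes, Tpm1, the focal adhesion kinase gene Ptk2 and the talin gene Tln1, with 4 sites, all lower. Tln1 was used at 2.19% and 2.71% in 168FARN and 0.689% and 1.26% in 4T07. The matrix list gave Sparc and Plaur, the urokinase receptor gene, with 3 sites, all lower. The 2 Plaur sites lay at 2.36% ± 0.28 in 67NR against 0.420% ± 0.331 in 4T07, and at 5.88% ± 1.57 in 168FARN against 1.15% ± 0.70 in 4T07. Of the Hippo, Wnt and Notch list, Ctnnb1, which encodes beta-catenin, and the Hippo effectors Tead1 and Wwtr1 had 1 site each, all lower. Ctnnb1 had 7 and 6 site reads in 67NR (0.371% ± 0.009) and 1 and 0 in 4T1, and Tead1 had 16 and 18 in 168FARN (4.71% ± 0.71) and 1 and 5 in 4T07.

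The secretory pathway, splicing and mesenchymal lists held sites of both directions. The secretory pathway list gave 4 genes with 7 sites, 5 lower and 2 higher. Uggt1, which senses misfolded glycoproteins in the secretory pathway, had 4 of these 7 sites, 3 lower and 1 higher. Copg1, a coatomer subunit, had 58 and 56 site reads in 168FARN (8.25% ± 0.22) and 11 and 19 in 4T07 (1.75% ± 0.58). The splicing list gave Sfpq and Tra2a with 4 sites, 1 lower and 3 higher. Outside it, the splicing genes Sf3b2 and Dhx15 were lower and Txnl4a was higher. Both Tra2a sites were higher in 4T07 than in 168FARN, at 4.20% ± 1.24 against 0.921% ± 0.006 and at 8.15% ± 1.02 against 2.82% ± 0.14. The list of mesenchymal regulators and markers gave 5 sites. The 2 sites in Axl, a receptor tyrosine kinase, were lower, and the 2 in Hmga2 and the 1 in Trps1 were higher. This list was not used to name the state of the cells. The ubiquitin list gave Cul4a and Ube2b, both lower. Other ubiquitin-system genes outside it went both ways: Ube4b and Pja2 were higher, and Spop, Usp10 and Fbxl17 were lower. The translation list gave Eif4a1, higher in 4T1 (50 and 54 reads) than in 67NR (13 and 10). Outside that list, Eif6 and Eif2a were lower and Rpsa was higher. The only site of the cleavage and polyadenylation list was that in Ssu72, higher in 4T07. No gene of the epithelial and DNA repair lists held a low-usage site, though 2 and 4 of their genes held another listed site.

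In 25 genes 2 or more of the sites fell, 52 sites in all. In 16 of these genes every site went the same way, and in the other 9 the sites differed or were listed in both directions. Wdr26, Csnk1e, Naglu, Rab31, H13, St3gal1 and Usp10 were among those whose sites were all lower, and Nav2, Nadk and Alg8 among those whose sites were all higher. Sites of 1 gene share the last-exon reads of that gene and are not independent. Some of them went opposite ways over the same last exon. In Pcbp2, an RNA-binding protein, 1 site had 8 and 5 reads in 168FARN and none in 4T07, while the other had 31 and 32 in 168FARN and 39 and 40 in 4T07, against last exons of 6332 and 6540 and of 3698 and 3946 reads. In Uggt1, likewise, the sites at chr1:36225251-36225580 and chr1:36208475-36208626 (minus strand) had 7 and 9 against 0 and 0 reads and 0 and 0 against 6 and 12 reads in 168FARN and 4T07.

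Usage could be followed over all 4 lines at 95 low-usage sites, from the tables where a line was listed and otherwise from the peak lists where the same peaks matched the tables. The median was 1.68% in 67NR, 1.28% in 168FARN, 0.640% in 4T07 and 0.871% in 4T1. The highest line was 168FARN at 40 sites, 67NR at 34, 4T07 at 14 and 4T1 at 7, and the lowest was 4T07 at 46. Both metastatic lines lay below both non-metastatic lines at 36 sites and above them at 8, and the remaining 51 followed neither order. These counts include the values that chose the sites.

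**Figure D4:**
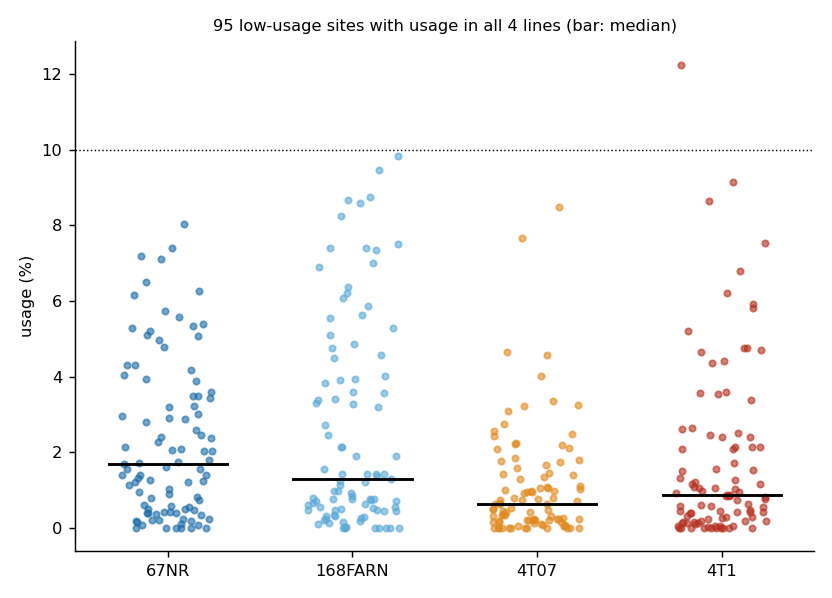
Usage (y axis, %) in each line (x axis) at the 95 low-usage sites with a value in all 4 lines, each point the mean of the libraries with a value and each bar the median. Medians run from 1.68% in 67NR to 0.640% in 4T07, and 1 point, in 4T1, lies above the dotted line at 10%.

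At 1 of these 95 sites a line outside its listing passed 10%. The St3gal1 site at chr15:66994155-66994424 (minus strand), in a gene for a sialyltransferase, was listed for 4T07 against 168FARN, at 1.05% ± 0.42 and 8.68% ± 2.48. By the lists it stood at 12.3% ± 2.0 in 4T1 and 3.44% ± 0.15 in 67NR. The Ttc7b site was at 9.82% ± 0.14 in 168FARN and at 0.463% ± 0.655 in 67NR, and the Usp10 site at chr8:122466956-122467359 was at 7.18% ± 0.97 in 67NR and at 1.91% ± 1.06 in 168FARN, so at these sites 1 non-metastatic line stood apart from the other.

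Sites listed for 1 pair of lines often went the other way in the other pair. Of 163 sites listed in a single comparison, 39 had usage in both lines outside it from lists that matched the tables. In those other lines 11 sites differed in the listed direction, 26 in the opposite direction and 2 were equal. At the other listed sites the counts were 10 in the listed direction and 23 opposite of 33. A site that differed the same way in both pairs strongly enough would have been listed for each pair and would not be counted here. The widest opposite differences after St3gal1 were at a Naglu site and at Wdr26. The Naglu site stood at 6.79% ± 1.28 in 4T1 and 0.510% ± 0.722 in 168FARN. In 4T1 it had 1 site read in each library, against 16 and 12 last-exon reads. It had been listed at 0.316% ± 0.447 in 4T07 against 5.21% ± 0.49 in 67NR. At Wdr26 the lists put the 4T1 libraries at 2.93% and 14.4%. The authors' U1 table put the same libraries at 5.42% and 8.73% at an overlapping interval. The spread was thus wider by the lists, but the list values took the last exon at 2 times the peak reads. The U1 table may count it otherwise, so these percentages need not share a scale.

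Opposite directions in different comparisons were listed at 3 sites. At the St6galnac6 site chr2:32459306-32459901 (plus strand), in a sialyltransferase gene, usage was 2.45% and 3.32% in 67NR and 1.87% and 2.39% in 4T1, but 0% and 0% in 168FARN and 0.419% and 0.236% in 4T07. The Ptges3 site at chr10:127498816-127499315, in the gene of an Hsp90 co-chaperone, stood at 0.906% and 0.902% in 67NR and 0.514% and 0.412% in 4T1, against 0% and 0.0648% in 168FARN and 0.148% and 0% in 4T07. The second St6galnac6 site, at chr2:32471802-32472371, stood at 1.97% and 4.48% in 67NR and 6.67% and 2.86% in 4T1, against 1.03% and 0.935% in 168FARN and 0.695% and 1.17% in 4T07. At these 3 sites 67NR and 4T1 lay above 168FARN and 4T07 in every library, an order that does not follow the labelled invasiveness.

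Site reads were then tested with edgeR's quasi-likelihood test over all merged peaks and Benjamini-Hochberg adjustment. For each site listed in a single comparison, the contrast of the other 2 lines was read, whose libraries gave none of its listed usage values. Sites that the authors listed in any other comparison, the tested one included, were left out beforehand, which can lower the number of calls. The shares of all peaks given below carry no such limit. Few sites could be tested. With 67NR, only 33 of 87 such sites in the contrast with 4T1 and 5 of 11 in that with 4T07 lay on chromosomes complete in both 67NR lists, and 4 and 1 of these passed the low-count filter. In 4T1 against 168FARN 9 of 43 sites on fitted chromosomes passed it (44 in all), and in 4T07 against 168FARN 4 of 21. In 4T1 against 67NR none was called, where 18.6% of all peaks tested were (7.73% higher and 10.8% lower). In 4T07 against 67NR none was called, where 29.1% of all peaks were (14.8% higher and 14.4% lower), and in 4T1 against 168FARN none, where 21.9% were (10.1% higher and 11.8% lower). At an unadjusted p under 0.05 the edgeR counts in these 3 contrasts were 0, 0 and 3, and DESeq2 called 0 in each. In 4T07 against 168FARN 2 of the 4 passed, 1 higher and 1 lower, where 33.3% of all peaks did (17.1% higher and 16.1% lower), and both went against their listed direction. Each passed the low-count filter only through the line where its reads were high, so these calls are given as read counts and support nothing further.

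The Cadm1 site at chr9:47637550-47637809 was 1 of these 2. It had 1 and 1 reads in 4T07 and 18 and 17 in 168FARN, after being listed as higher in 4T1 than in 67NR. This is a difference in site reads, not in usage, and the second Cadm1 site was likewise lower in 4T07, with 0 and 0 against 11 and 13 reads while the last exon had 223 and 279 against 913 and 1136. The Tcf25 site had 37 and 63 reads in 4T07 and none in 168FARN, but its list reads did not match the tables in the lines where it was listed. Both calls were lost with either 4T07 library left out, and that of Cadm1 also with either 168FARN library left out.

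In 4T1 cells given the U1 antisense morpholino, the test was read at the 159 low-usage sites listed in no comparison with 4T1. Absence from those comparisons itself rests on the 4T1 libraries, so these sites are not fully independent of them. Of the 159, 31 had enough list reads to be tested. Against 4T1, 2 were higher and 1 was lower (edgeR, adjusted p under 0.05), where 23.4% of all peaks tested were called (12.3% higher and 11.2% lower). A site in Tra2a, a splicing activator, had 207 and 207 reads with the morpholino and none in the 4T1 lists, and the site in Fam120a had 28 and 18 and none. The Fxyd5 site had 0 and 0 reads with the morpholino and 39 and 23 in 4T1. All 3 passed the low-count filter only through the group where their reads were high, so no fold change is given for them and the calls support nothing further. The list reads of all 3 sites did not match the tables, and the authors' deposited U1 table holds 5 and 24 reads in 4T1 at the Tra2a interval and 4 and 2 at the Fam120a interval, beside 197 and 196 and 24 and 15 with the morpholino. The list counts of none in 4T1 are therefore below those of the table, and the differences are smaller by the table. Among the 17 tested sites whose list reads matched, 0 were called by edgeR, and 15 of all 31 had an unadjusted p under 0.05. Without either morpholino library 0 were higher, and without 4T1 replicate 1 or replicate 2 there were 4 and 6 higher.

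The authors' deposited U1 table gives usage in the same cells. It lists 1561 sites, 1368 of them higher with the morpholino (87.6%), and 31 of its intervals overlap 29 of the low-usage sites by at least 1 bp. Of these 31, 23 were higher and 8 lower (74.2% higher), against 9 higher and 31 lower at the other line sites that overlap it. The limit of 10% leaves the low-usage sites more room to rise than the other ones, so this contrast is a description of the selection. The U1 table shares its 4T1 libraries with the comparisons of 4T1, so the sites listed in no comparison with 4T1 are given apart. Their absence from those comparisons also rests on 4T1 libraries. Of these 159 sites, 15 overlapped the U1 table, with 17 intervals, 14 higher and 3 lower. Several of the 14 higher intervals lie in Tra2a and Sfpq, where intervals of the same gene share a last exon. Of the 67 sites chosen with 4T1 libraries, 14 overlapped the U1 table, 9 intervals higher and 5 lower. The U1 table did not always count the last exon as the line tables did. At intervals overlapping the Wbscr22 and Ube2b sites its mean 4T1 usage was 2.27% and 0.174%. The line tables, which held both last exons at 2 times the peak reads, gave 1.15% and 0.0873%, and counted once these were 2.27% and 0.174%. At such sites the U1 percentages are not on the scale of the 10% limit.

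Among the 31 intervals the largest deposited log2 fold changes under the morpholino were in the splicing factor genes Sfpq and Tra2a. At the interval that overlaps the Tra2a site chr6:49202725-49203931 (minus strand) usage was 37.3% and 33.4% with the morpholino and 0% and 2.66% in 4T1, and at an interval within the second Tra2a site it was 30.7% and 24.9% against 1.19% and 3.71%. The authors' deposited table gave log2 fold changes of 4.09 (SE 0.63) and 3.34 (SE 0.52). These 2 intervals stood above 20% in every library with the morpholino, while another interval within the second site stood at 2.2% and 1.83% against no site read in 4T1. Sfpq, another splicing regulator, had 85 and 69 site reads with the morpholino and 0 and 4 in 4T1 at 1 site (9.81% ± 0.79 against 0.156% ± 0.220), and 100 and 78 against 2 and 11 at an interval within the other (11.2% ± 1.2 against 0.540% ± 0.442), where another interval had 20 and 15 against 0 and 3. The ubiquitin-conjugating enzyme gene Ube2b had 38 and 61 against 0 and 2 reads (6.59% ± 1.65 against 0.174% ± 0.247). Ube2b and the first Sfpq site were chosen with these same 4T1 libraries, where their usage was low.

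Both Tpm1 sites that were low in the metastatic lines were higher with the morpholino, at 4.20% ± 0.37 against 0.946% ± 0.230 and at 3.23% ± 0.58 against 0.728% ± 0.265 in 4T1. Both were chosen with these same 4T1 libraries, where their usage was low, so the selection favours a rise against them. The first value is close to the 4.00% ± 0.09 of 168FARN, but the U1 interval covers only part of that site. Chka, a choline kinase gene, reached 43.5% and 40.5% with the morpholino against 5.10% and 19% in 4T1, a line outside its listing. The mean in 4T1 was 12% ± 9.8, and the 2 libraries lay far apart. The line tables held the Chka last exon at 3 times the peak reads, and counted once its usage in 4T07 was 14.2%. Whether the U1 table counts it likewise was not tested, so this mean cannot be set against the 10% limit. Tor1aip1, at 30.2% and 23.2% against 11.3% and 7.72%, stood near 10% in 4T1.

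The 8 intervals that were lower with the morpholino included sites that had been higher in 4T1 than in the non-metastatic lines. Ube4b stood at 0.992% and 1.72% with the morpholino and 10.7% and 6.42% in 4T1, Ppp1r8 at 0% and 0% against 3.46% and 5.34%, and Wbscr22 at 0% and 0.204% against 1.87% and 2.68%. These 3 were chosen with the same 4T1 libraries, where their usage was higher than in the listed non-metastatic lines, so the selection favours a fall. The 4T1 value that chose Wbscr22 was 1.15%, with its last exon held at 2 times the peak reads. Ehbp1l1, listed in no comparison with 4T1, was also lower, at 1.21% and 0% against 3.39% and 8.14%. So was Wdr26, at 2.55% and 2.47% against 5.42% and 8.73%.

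**Figure D5:**
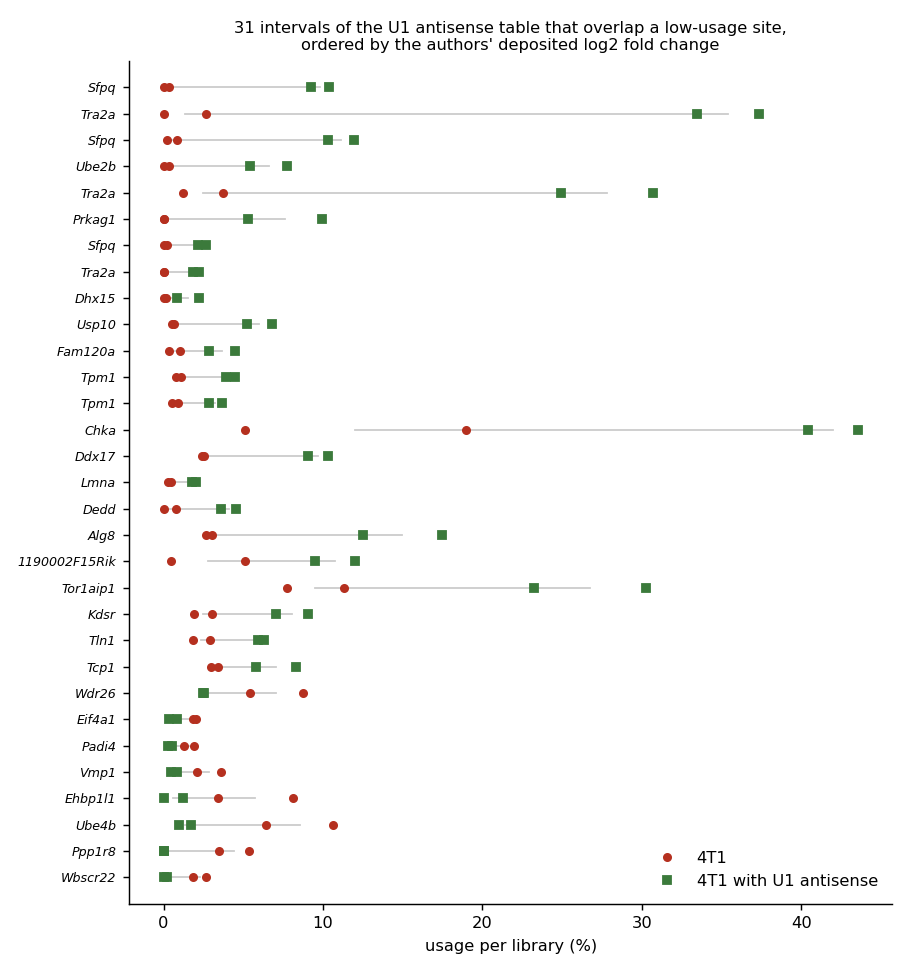
Usage per library (x axis, %) at the 31 intervals of the authors' deposited U1 table that overlap a low-usage site (y axis, gene names, ordered by deposited log2 fold change), with circles for the 2 4T1 libraries and squares for the 2 libraries with the morpholino. Squares lie to the right of the circles at 23 intervals and to the left at 8, and the Chka and Tor1aip1 intervals and 2 of the 3 Tra2a intervals pass 20% with the morpholino.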

How the data were processed

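Tools listed in the submitters' processing notes, with no role for each, were DESeq2 1.4.5, bedtools 2.17.0, Bowtie2 2.2.5 and SAMtools 1.1, on build mm9. Per the file headers, the authors deposited comparison tables with a normalized read signal per library for the intronic site and the last exon, log2 fold changes and adjusted p-values, and peak lists with whole-number read counts. Coordinates are 1-based mm9, sites are intronic on the authors' word, and no mm9 sequence or annotation was used here. Each signal column was a whole multiple of 1 read (100% of values within 0.1 read), and site reads are given on that basis. Log2 fold changes are written metastatic minus non-metastatic. An adjusted p listed as 0 is a rounded value.

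Peaks of the 10 lists were merged where they overlapped by at least 1 bp, and their counts were tested with edgeR 4.0.16 (TMM, filterByExpr, glmQLFit and glmQLFTest, 4 libraries per fit) in R 4.3.3, with DESeq2 1.42.0 as an alternative. The fits with 67NR used the chromosomes complete in both 67NR lists. The test was tested on simulated data. List reads were called matching within 10% for a site and 5% for a last exon, taking the nearest downstream run within 500 kb at multiples of 1, 2 or 3; a last-exon tolerance of 10% and a best match at any distance were also tried, and these settings were chosen with the data in view. Sites were named by rule: those listed in 3 or 4 comparisons, the 4 largest deposited changes per comparison and direction, the 6 nearest the limit on each side, those in the gene lists, genes with 2 or more sites, the 6 with most last-exon reads and the 6 with the lowest usage, the 4 largest in the U1 table per direction and the calls in other contrasts. The sites and gene lists were chosen with earlier results of these data known.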

Additional observations from a re-analysis of the deposited data

Results flagged for a closer look

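At 3 sites the 2 line pairs moved in opposite directions with no overlap between the libraries of either pair, and the difference between the pairs was not tested. In the authors' deposited table the St6galnac6 site at chr2:32459306-32459901 had log2 fold changes of -2.17 in 4T07 against 67NR and 2.24 in 4T1 against 168FARN, and the second St6galnac6 site, at chr2:32471802-32472371, had -1.33 and 1.63. The Ptges3 site at chr10:127498816-127499315 had -1.81 and 1.73. The 2 comparisons share no library, and the 2 St6galnac6 sites share a last exon.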

How the results depend on the processing

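Depth limits these results: a median of 6.5 site reads per library leaves most sites untestable, and the list of 67NR replicate 2 is incomplete. The set of 226 sites was 142 with a limit of 5%. With any other choice tried it held between 212 and 233 sites. Usage below 10% in every library gave 213, summed signal 227, and replicate 1 or 2 left out 233 and 229. The last exon counted once at the matched sites, an alternative chosen after seeing the data, gave 212.

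With the authors' deposited adjusted p held to at most 0.05, the sites lower in 4T1 against 67NR went from 38 to 25, and those higher in 4T07 from 18 to 11 against 67NR and from 39 to 22 against 168FARN. At most 0.01 left 4 lower and 2 higher in 4T1 against 67NR, 32 and 4 in 4T07 against 67NR, 8 and 4 in 4T1 against 168FARN and 33 and 5 in 4T07 against 168FARN.

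In the site-read fits, edgeR without the low-count filter called 1 higher and 2 lower of 25 in 4T1 against 67NR, 1 lower of 39 in 4T1 against 168FARN, and 10 higher and 4 lower of 135 under the morpholino. DESeq2 called 5 higher and 3 lower under the morpholino. An adjusted p under 0.01 left 0 calls in 4T07 against 168FARN and under the morpholino. With only sites whose list reads matched the tables, chosen after seeing the data, 0 were higher in 4T07 against 168FARN and 0 were called under the morpholino. With 1 library left out, the counts ran from 0 to 1 higher and stayed at 0 lower in 4T07 against 168FARN, and from 0 to 6 higher and 0 lower under the morpholino; a lone library in a group is then assumed to vary like the other group. Same-numbered libraries did not pair (correlations of deviations from -0.03 to 0.12 over 5 contrasts, with 2 pairs each), and with the replicate number as a block 0 were called in 4T07 against 168FARN and 0 under the morpholino. The cause of these shifts was not tested.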
